A study of Mus musculus with 6 samples.

Results

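The quantity described is the difference between 2 drug responses: the log2 ratio of treated to mock RNA in lung cells minus the same ratio in bone marrow cells, gene by gene. A gene was kept where its probe stood well above its local background, in the mock or the treated channel, on at least 2 of the 3 arrays of each tissue. That rule kept 17546 of the 22157 genes tested (79.2%), called members here, so that a transcript seen in only 1 tissue did not enter as a difference in response. A positive difference means that treated over mock was higher in lung than in marrow. It does not say by itself whether lung cells rose or marrow cells fell, so the 2 tissue ratios are given beside each difference.

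The cells were monocytic myeloid-derived suppressor cells (M-MDSCs) of C57BL/6 mice, sorted by flow cytometry from bone marrow or from lung. Treated mice had received azacytidine plus entinostat, and mock mice had received the vehicle. Mock mice were 6 to 8 weeks old, and no age is labelled for the treated channel. Each mock RNA came from 1 to 2 mice, and each treated RNA was a pool of 3 to 6. The 6 arrays carried mock RNA in the green dye (Cy3) and treated RNA of the same tissue in the red dye (Cy5), with 3 arrays per tissue that the labels call biological replicates. Dose, days of treatment and whether the mice carried tumours are not given in the sources used here.

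M-MDSCs are immature cells of the monocyte line that hold back T cells, and they leave the marrow for organs such as the lung. Monocytes that settle in a tissue can mature into macrophages, which switch on scavenger receptors, complement C1q, lysosomal enzymes and, where interferon acts on them, MHC class II. Azacytidine is built into nucleic acids and traps DNA methyltransferases, while entinostat inhibits class I histone deacetylases. The contrast asks for which genes the response to the pair of drugs differed between the 2 tissues.

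All values are log2 of Cy5 over Cy3, that is treated over mock. The headings of the deposited value tables read mock over treated, but their values matched Cy5 over Cy3 on every array (r = 1), and the direction used here is that of the dyes named in the labels. No array had the dyes swapped, so a gene's dye effect stands in both tissue ratios and is removed from the difference as far as it is equal in both. The lung arrays shared 1 slide and the marrow arrays another, so the tissue cannot be told apart from the slide. In bulk sorted cells, more cells of a type and more RNA per cell cannot be told apart either.

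The arrays had 49.9% to 62.8% of spots well above background in Cy3 and 55.1% to 69.5% in Cy5, with 0 saturated spots, and their number limits the precision. Ratios over all members correlated at 0.6 to 0.75 between marrow arrays, 0.71 to 0.87 between lung arrays and 0.18 to 0.4 between arrays of different tissues. After background correction the negative control spots read 240 in Cy5 on marrow array 1 and 87 on lung array 2, against 13.3 to 16 on the other 4 arrays. The monocyte marker list, the defining list for these cells, summed to 406000 to 446000 intensity units in lung mock RNA and 453000 to 537000 in marrow mock RNA. These linear sums were of a like size, but bright genes weigh most in them, so single monocyte genes can differ. Treated RNA gave 411000 to 461000 in lung and 459000 to 526000 in marrow. Marrow cells also carried neutrophil granule transcripts, which summed to 633000 to 672000 in marrow mock RNA and to 70300 to 97700 in lung mock RNA. The treated sums of that list were 719000 to 764000 in marrow and 108000 to 203000 in lung.

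The response differed between lung and marrow for 2774 members (15.8%) in limma's moderated test of the difference, with p-values adjusted over all genes tested by the Benjamini-Hochberg method and a threshold of 0.05. Over all 22157 genes tested the share was 15.2%. The response was higher in lung for 1669 members (9.51%) and lower in lung for 1105 (6.3%). At an unadjusted p under 0.05, 5974 members passed. In all 2774 the 3 lung ratios did not overlap the 3 marrow ratios, which was true of 7120 members in all (40.6%). Most differences were small: the median size among called members was 0.59 on the log2 scale and the smallest was 0.28. A difference of at least 2-fold was called for 317 members in the direction of lung and 120 in the direction of marrow, and one of at least 4-fold for 29 and 13 members. The median SE of a difference was 0.11, and the median SD between arrays was 0.12 in lung and 0.13 in marrow.

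The split between higher and lower depended on the processing. With the scanner software's own processed signals 2613 members were called, 1609 of them among the reported 2774. The differences correlated at 0.724 with those reported, the lowest value among the alternatives. The share of calls higher in lung was 42.2% with those signals, against 60.2% as reported. Without marrow array 2 it was 72.7%, and the count of calls was 1211. Centring each array on its median in place of the intensity-dependent loess curve left 13 calls, 9 higher and 4 lower, with 1281 members at an unadjusted p under 0.05. That centring moved the median difference of the members from -0.01 to -0.132, and 2753 of the 2774 called members had the same sign. Because it removes the call of nearly every gene named here, it is not repeated at each one. The exceptions, with a call under every alternative that gave them a value, were Ccl7, Mrc1, Rgs1, Mzb1, Cxcl16 and C1qc among 153 called members that the naming rule reached. Ccl7 and Mzb1 had no value where both channels of each tissue had to be well above background. The count also moved by more than 1.5 times without marrow array 1 (1595), marrow array 3 (1844), lung array 2 (1794) and lung array 3 (1841), each of which leaves a smaller fit.

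**Figure D1:**
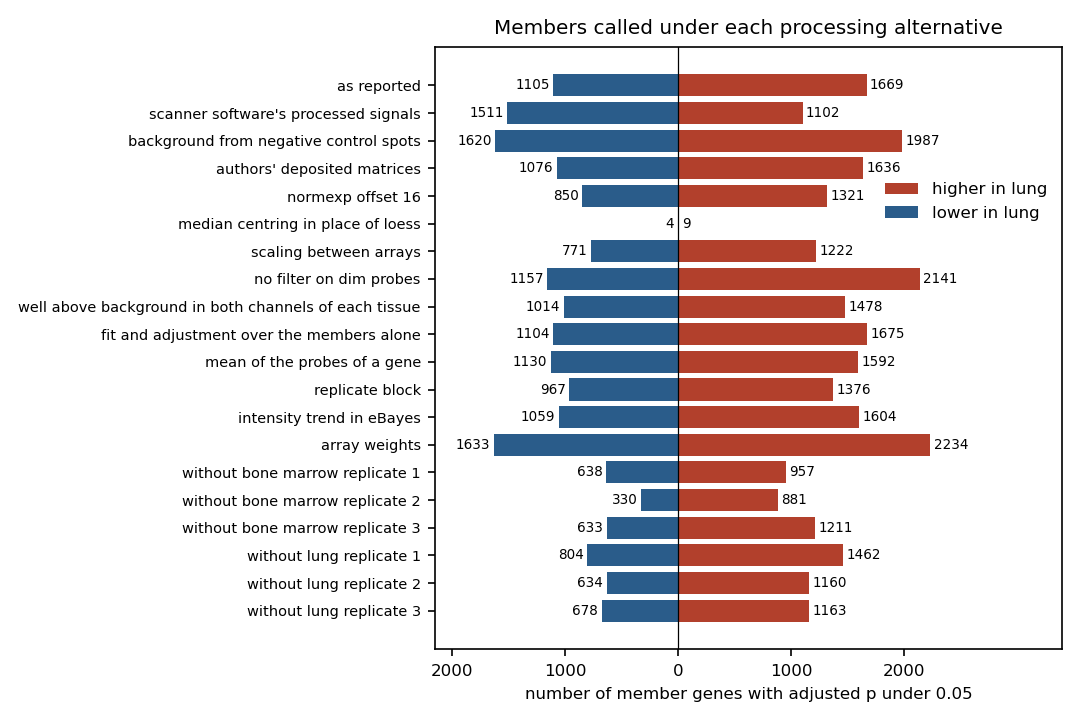
Numbers of member genes with a called difference (adjusted p under 0.05) under each way of processing the arrays, with genes higher in lung drawn to the right in red and genes lower in lung drawn to the left in blue. The top bar is the fit as reported, 1669 and 1105, and the bar for median centring shows 9 and 4.

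The lung ratio itself passed the test for 6380 members (36.4%) and the marrow ratio for 3024 (17.2%). The SD of the ratios over all members was 0.4 in lung and 0.27 in marrow. Most of the called differences came from a lung ratio that moved beside a marrow ratio that did not pass. Of the 1669 higher members, 1097 (65.7%) rose in lung while the marrow ratio did not pass, with a median ratio of 0.69 in lung and -0.02 in marrow. A further 272 (16.3%) fell in marrow with no lung change that passed, 128 (7.67%) rose in lung and fell in marrow, and 78 (4.67%) rose in both, more so in lung. Among the 1105 lower members, 679 (61.4%) fell in lung with a marrow ratio that did not pass, 229 (20.7%) rose in marrow with no lung change that passed, and 67 (6.06%) fell in lung and rose in marrow. The tissues also had responses in common whose difference did not pass: 658 members rose in both and 600 fell in both.

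**Figure D2:**
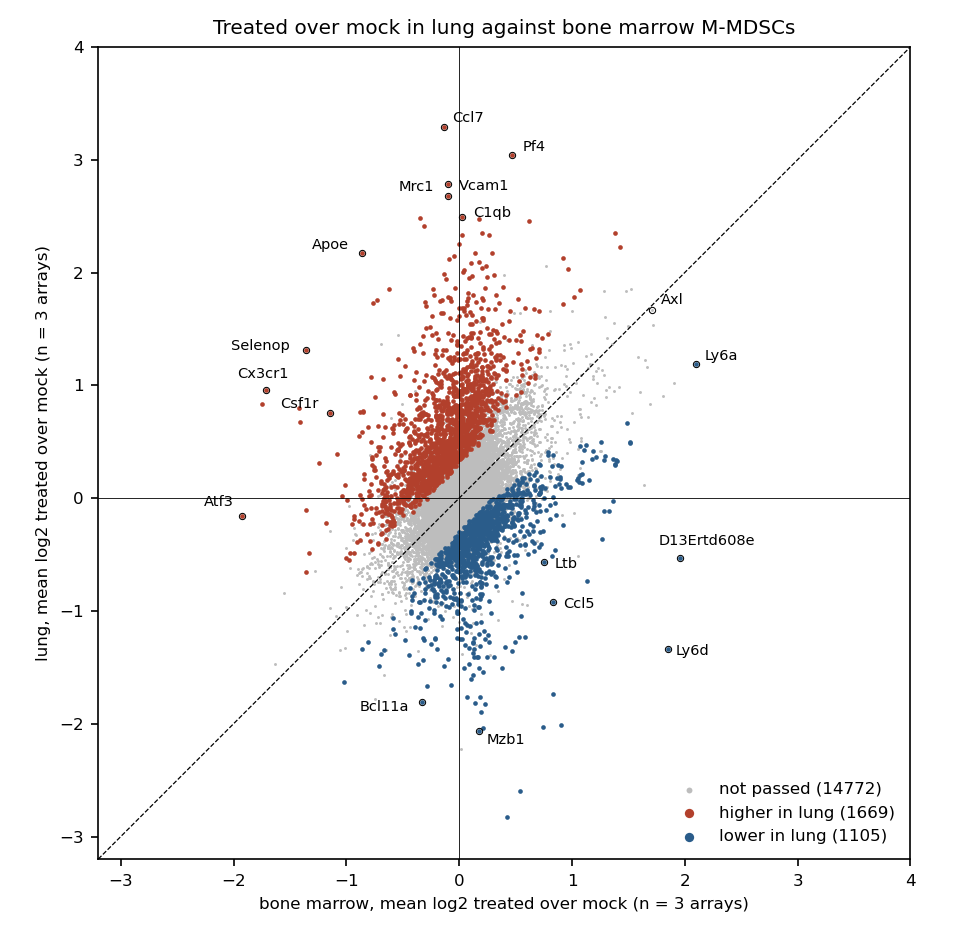
Mean log2 treated over mock in lung (vertical axis) against bone marrow (horizontal axis) for the 17546 members, 3 arrays per tissue, with the line of equal response dashed. The 1669 members in red lie above the line and the 1105 in blue below it. Axl and Ly6a lie far to the upper right, where both tissues rose, and Ly6d and D13Ertd608e lie at the lower right.

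The macrophage identity list had the largest median difference of the 43 gene lists examined. The count of each list stands beside a share of 15.8% called over all members. Some genes stand in more than 1 list, so the counts of different lists are not independent. C1qa, C1qb and C1qc are in the macrophage and complement lists, and Apoe and Msr1 are in the macrophage and lipid uptake lists. Shares were near that in lists such as type I interferon (17.1%), DNA methylation enzymes (17.6%), cholesterol and fatty acid synthesis (18.2%), NADPH oxidase (18.8%) and histone deacetylases (20%). In the macrophage list the share was 73.7%. Of its 19 members 14 were higher in lung and 0 lower, and its median difference was 1.36 against -0.01 over all members. In lung 16 of the 19 rose, and in marrow 0 rose and 2 fell. Leaving out any 1 array left 12 to 14 of them called, and the processed signals left 9. Mrc1, the mannose receptor CD206, had ratios of 3.52, 2.49 and 2.34 on the lung arrays and of -0.09, -0.05 and -0.15 on the marrow arrays. The marrow arrays stood at the level of the mock cells and all 3 lung arrays far above, for a 6.88-fold rise in lung and a difference of 2.88 ± 0.28 (SE; limma adjusted p = 0.00156). The mean log2 level of Mrc1 in mock RNA was 7.15 in marrow and 10.89 in lung. Apoe, the lipid-carrying apolipoprotein E, read 2.94, 1.84 and 1.73 in lung and -0.54, -0.43 and -1.62 in marrow, a difference of 3.04 ± 0.40 (limma adjusted p = 0.00431). Ms4a7, a membrane protein of mature macrophages, read 2.41, 1.96 and 1.92 in lung against 0.37, 0.20 and -0.05 in marrow, and differed by 1.92 ± 0.16 (limma adjusted p = 0.00107). The groups did not overlap for any of these genes.

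Transcription factors and receptors of the same list moved with them. Maf, a factor of mature macrophages, read 1.24, 1.37 and 1.48 in lung and 0.02, 0.14 and -0.21 in marrow, and differed by 1.38 ± 0.12. The scavenger receptors Stab1 and Msr1 differed by 1.86 and 1.05, and Trem2, a lipid-sensing receptor, by 0.88. Adgre1, which encodes F4/80, read 1.19, 0.87 and 1.13 in lung and 0.33, 0.41 and -0.31 in marrow, with a difference of 0.92 ± 0.20 (limma adjusted p = 0.0215). Its call ended without lung array 3 (0.89, adjusted p = 0.0513), when log ratios were scaled between arrays (adjusted p = 0.0715) and with the processed signals (adjusted p = 0.0516).

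The summed intensity of the macrophage list was 95300 to 120000 in lung mock RNA and 270000 to 362000 in lung treated RNA, and it was 66000 to 73100 in marrow mock RNA and 30400 to 44800 in marrow treated RNA. These are linear sums, in which bright members such as Csf1r and Apoe weigh most. From mock to treated, the mean log2 level of Csf1r went from 15.35 to 16.11 in lung and from 15.36 to 14.22 in marrow. That of Apoe went from 14.16 to 16.33 in lung and from 13.81 to 12.94 in marrow. All 24 listed genes tested were well above background in both lung channels on every array, and 16 to 19 of them on the marrow arrays. Whether the share of macrophages in the sorted lung cells changed was not tested.

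The alveolar macrophage list, genes of the resident phagocyte of the air spaces, had 11 of 18 members higher in lung and 0 lower, with a median difference of 1.16. The higher count was 5 without marrow array 1, 5 without marrow array 2 and 6 without marrow array 3, and 11 to 12 without any 1 lung array. The median difference was lowest, at 0.87, without lung array 1, and highest, at 1.35, without lung array 3. Lung array 1 had the highest treated sum of the list, 347000 against 183000 and 230000. Krt79, a keratin gene expressed in alveolar macrophages, read 2.81, 1.79 and 1.58 in lung and 0.19, 0.16 and 0.35 in marrow, a difference of 1.82 ± 0.29 (limma adjusted p = 0.00788). Ear6, one of a family of near-identical ribonuclease genes whose probes may share signal, read 2.29, 1.33 and 1.45 in lung and 0.21, 0.01 and -0.23 in marrow. It differed by 1.69 ± 0.25, and its relatives Ear1, Ear2 and Ear10 by 2.03, 1.91 and 1.48. Siglecf, the sialic acid receptor used to sort these cells, differed by 1.28 and did not pass (limma adjusted p = 0.0508). The summed level of the list was 128000 to 150000 in lung mock RNA and 183000 to 347000 in lung treated RNA, and 118000 to 145000 and 130000 to 151000 in marrow. Its part in the other macrophage results was not tested.

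Complement genes were mostly higher in lung where they differed. The 3 chains of C1q, the recognition unit of the classical pathway that macrophages make, were among the larger differences. C1qb read 3.10, 2.31 and 2.06 in lung and 0.31, -0.23 and 0.00 in marrow, and differed by 2.46 ± 0.26 (limma adjusted p = 0.00217). C1qc read 2.78, 2.10 and 1.89 in lung against 0.16, -0.06 and -0.11 in marrow, a difference of 2.26 ± 0.22 (limma adjusted p = 0.00153), with marrow mock RNA well above background on 2 of 3 arrays. C1qa differed by 2.30 ± 0.27, but marrow mock RNA was well above background on 0 of 3 arrays, and with the processed signals the difference was 1.27 and did not pass (limma adjusted p = 0.31). Of the receptors for the cleaved fragments, C3ar1 read 1.59, 1.98 and 2.02 in lung and 0.32, 0.36 and 0.02 in marrow, and C5ar1 read 1.43, 1.60 and 1.70 against 0.45, 0.62 and 0.25. Marrow mock RNA for C3ar1 was well above background on 1 of 3 arrays. They differed by 1.63 and 1.13, and lost their calls with the processed signals (1.0, adjusted p = 0.117, and 0.6, adjusted p = 0.184). Cfb, factor B of the alternative pathway, went the other way, with a difference of -0.70 whose call ended without marrow array 1 or 2. In all, 8 of the 16 members of the complement list were higher in lung and 1 lower, and 3 were higher with the processed signals.

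Efferocytosis, the eating of dying cells, had more higher than lower calls, in a list that shares Stab1 with the macrophage list and Cd36 with the lipid uptake list. Of 11 members of that list 6 were higher and 0 lower, with 4 higher without marrow array 2. Gas6, the ligand that bridges dying cells to the Axl and Mertk receptors, read 3.22, 1.91 and 2.12 in lung and -0.06, -0.28 and -0.60 in marrow, and differed by 2.73 ± 0.33 (limma adjusted p = 0.00293). Its treated marrow signal was well above background on 1 of 3 arrays. Its receptor Axl rose alike in both tissues, by 1.66 in lung and 1.71 in marrow, a difference of -0.05. Cd36, which takes up oxidised lipid and dying cells, read 1.67, 1.41 and 1.32 in lung and 0.07, -0.15 and -0.22 in marrow, a difference of 1.57 ± 0.12 (limma adjusted p = 0.000805). Marrow mock RNA for Cd36 was well above background on 2 of 3 arrays.

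Lysosomal and lipid genes followed. In the lysosome list 12 of 28 members were higher and 0 lower, with a median difference of 0.53 and 10 to 12 calls on leaving out any 1 array. In lung 17 of the 28 rose and 0 fell, and in marrow 2 rose and 4 fell. Lgmn, the protease legumain, read 1.25, 1.17 and 1.52 in lung and 0.15, 0.06 and -0.63 in marrow and differed by 1.45 ± 0.21. Ctsh, cathepsin H, read 0.39, 0.13 and 0.22 in lung and -0.58, -0.41 and -0.77 in marrow, so that its difference of 0.83 ± 0.12 was mostly a fall in marrow. The protective protein gene Ctsa had the same form (0.25 in lung, -0.75 in marrow). In the lipid uptake and efflux list 9 of 17 members were higher and 1 lower, and 6 were higher without any 1 of the marrow arrays. They included the fatty acid carrier Fabp4 (1.16), the efflux transporter Abcg1 (1.16), the oxidised LDL receptor Olr1 (1.86) and the phospholipid transfer protein Pltp (1.35). Soat1, which esterifies cholesterol for storage, was the member lower in lung (-0.54).

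**Figure D3:**
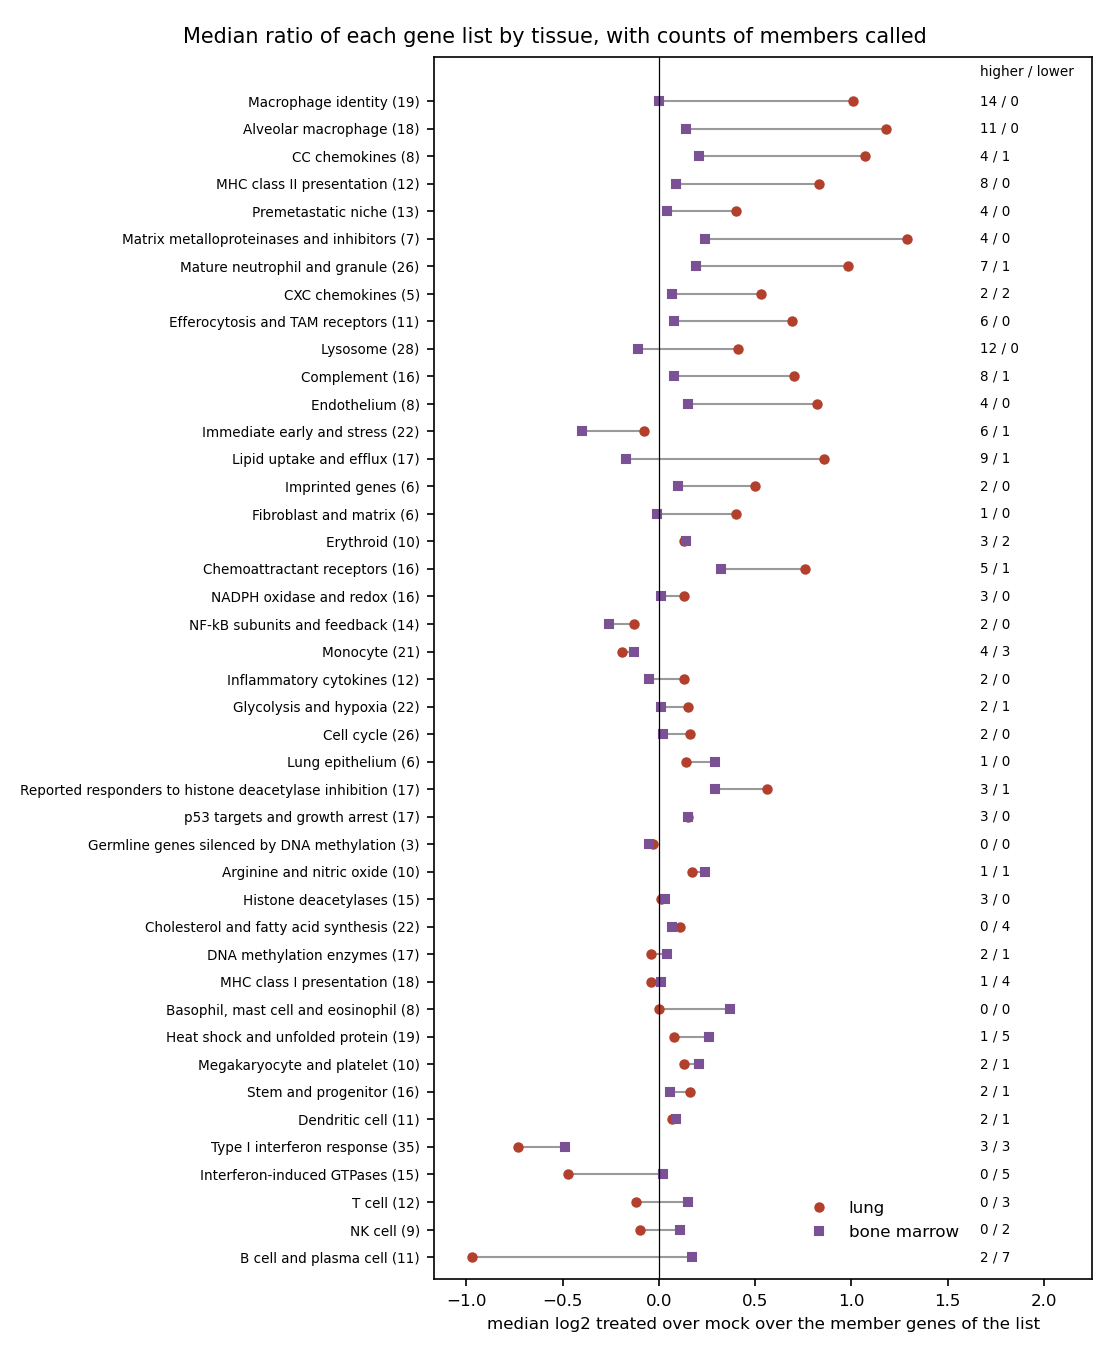
Median log2 treated over mock over the member genes of each list in lung (red circles) and bone marrow (purple squares), sorted by median difference, with the number of members in brackets and the counts called higher and lower in lung at the right. The macrophage identity list sits at 1.01 in lung and 0 in marrow, and the B cell and plasma cell list lies on the other side.

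MHC class II genes, which present peptides to CD4 T cells, were higher in lung for 8 of 12 members and lower for 0, with a median difference of 0.83. Without lung array 2 the count was 5, and it was 6 or 7 without any other array. With the processed signals 7 members were higher and 3 lower. H2-Aa, the alpha chain of I-A, read 2.86, 2.11 and 1.47 on the lung arrays and 0.21, -0.21 and -0.14 on the marrow arrays. The lowest lung array lay above the highest marrow array, and the difference was 2.19 ± 0.32 (limma adjusted p = 0.00586). The beta chain gene H2-Eb1 read 2.30, 1.97 and 1.74 in lung and 0.49, -0.29 and -0.09 in marrow, a difference of 1.97 ± 0.22 (limma adjusted p = 0.00249). Cd74, the invariant chain that guides class II through the cell, read 2.04, 1.53 and 1.32 against 0.30, -0.04 and -0.08, and H2-Ab1 differed by 1.51 ± 0.20. Ciita, the activator that switches the class II genes on, did so in another way, with a mean of 0.11 in lung and a fall to -0.58 in marrow. Genes of peptide loading were mixed: H2-DMa (1.18) and H2-DMb1 (0.44) were called, while H2-DMb2 (0.23), H2-Oa (-0.19) and H2-Ob (0.26) did not pass.

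Promoter sequence is shown for H2-Aa because it had the largest class II difference, with 3 genes of the opposite direction given further on. The stretch is the 250 bases before the RefSeq start in GRCm38.p6, chr17:34287824-34288073 on the minus strand, written 5′ to 3′ along the gene. Capitals mark matches to motifs searched on both strands, here the NF-kB motif GGGANNTCC, with overlapping matches from 131 to 122 bases before the start, and the cyclic AMP response element (CRE) TGACGTCA from 74 to 67.
H2-Aa: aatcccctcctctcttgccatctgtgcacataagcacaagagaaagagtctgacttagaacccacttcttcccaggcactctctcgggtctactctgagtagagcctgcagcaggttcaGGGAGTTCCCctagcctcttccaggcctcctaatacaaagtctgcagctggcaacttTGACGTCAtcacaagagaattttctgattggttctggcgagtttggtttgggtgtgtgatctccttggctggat
Of all 27025 promoters in the table, 3.53% held the NF-kB motif and 1.62% the CRE. The H2-Aa stretch held 3 CpG dinucleotides, the sites at which DNA methyltransferases act. A match is a description of letters, and no binding was measured.

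Chemokines, the attractants of leukocytes, split by kind. In the CC list 4 of 8 members were higher and 1 lower, and scaling between arrays left 1 higher. Ccl7, an attractant of monocytes through CCR2, had the largest difference of any named member. Its probe (mm9 chromosome 11, 81860656 to 81860715) read 3.24, 3.35 and 3.30 on the lung arrays and -0.02, -0.29 and -0.09 on the marrow arrays. The 3 lung arrays lay close together, and the 9.81-fold rise in lung stood against a marrow fold of 0.912. The difference was 3.43 ± 0.10 (limma adjusted p = 3.02e-05), with marrow mock RNA well above background on 2 arrays and treated RNA on 1. Ccl2, the main CCR2 ligand, read 1.67, 2.37 and 2.47 in lung and 0.62, 0.40 and -0.15 in marrow, a difference of 1.88 ± 0.26 (limma adjusted p = 0.00506) that did not pass with scaling between arrays (1.61, adjusted p = 0.0657). Ccl24, an attractant of eosinophils, read 2.37, 3.16 and 1.46 against 0.26, 0.32 and 0.20, a difference of 2.07 ± 0.37 that did not pass with the processed signals (1.38, adjusted p = 0.11) or with scaling (adjusted p = 0.0762). Cxcl16, a membrane-bound attractant of T cells, read 1.79, 2.06 and 1.96 in lung and 0.05, 0.05 and -0.44 in marrow, and differed by 2.05 ± 0.15 (limma adjusted p = 0.000705).

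Pf4, a chemokine of platelets and of tissue macrophages, read 3.56, 2.80 and 2.76 in lung and 0.22, 0.44 and 0.76 in marrow, a difference of 2.57 ± 0.24 (limma adjusted p = 0.0013). Marrow mock RNA was well above background on 0 of 3 arrays, so the mean marrow fold of 1.39 is a lower bound and the difference of 2.57 an upper bound. The marrow ratio itself did not pass (limma adjusted p = 0.096). With the processed signals the difference was 0.69 and did not pass (limma adjusted p = 0.283). The bound sets the treated mean against the mean over arrays of the higher of the mock signal and the lowest signal that counts as well above background, and here the mock signal itself set it, so it equals the measured fold. Summed levels of the platelet list were 15600 to 16300 in lung mock RNA, 53200 to 56500 in lung treated RNA, 2330 to 3250 in marrow mock RNA and 4790 to 6410 in marrow treated RNA. Pf4 is itself in these sums, with a mean log2 level of 11.84 in lung mock RNA and 14.87 in lung treated RNA. Of the 10 members of the list 2 were higher and 1 lower, with a median difference of -0.09.

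Ccl5, Cxcl9 and Cxcl10, attractants of activated T cells, were lower in lung, unlike Cxcl16. Ccl5 (RANTES) read -0.86, -1.03 and -0.88 in lung and 0.49, 0.81 and 1.19 in marrow. It fell in every lung array and rose in every marrow array, passing in both tissues (adjusted p = 0.00129 and 0.00696), with a difference of -1.75 ± 0.17 (limma adjusted p = 0.00156). Cxcl10, an interferon-induced attractant for CXCR3, read -1.26, -0.20 and 0.10 in lung and 0.71, 0.80 and 1.04 in marrow, a difference of -1.31 ± 0.32 (limma adjusted p = 0.0336). That call ended without marrow array 1 (-1.38, adjusted p = 0.0774), marrow array 2 (-1.34, 0.102), marrow array 3 (-1.21, 0.0942) or lung array 2 (-1.44, 0.0567), and with the mean of its probes (-0.52, 0.247). Its relative Cxcl9 differed by -0.49, with a call that ended without any 1 marrow array (adjusted p = 0.0649, 0.0984 and 0.087) or without lung array 1 (0.063) or lung array 3 (0.0814). So the CXC list, with 2 higher and 2 lower of 5 members, kept 0 lower calls without any marrow array and 1 without any lung array.

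Chemoattractant receptors moved in both directions, with 5 of 16 members higher and 1 lower. Cx3cr1, the fractalkine receptor of patrolling monocytes and tissue macrophages, read 1.46, 0.69 and 0.72 in lung and -1.15, -1.16 and -2.84 in marrow, a difference of 2.67 ± 0.45 (limma adjusted p = 0.0102). S1pr1, the receptor for sphingosine phosphate by which leukocytes leave tissue, rose in lung by 1.25, 1.09 and 1.49, with marrow at 0.01, 0.08 and 0.01. Marrow mock RNA was well above background on 0 arrays for S1pr1. Cxcr4, which holds cells in the marrow through CXCL12, read -0.69, -0.28 and -0.45 in lung and 0.48, 0.36 and 0.48 in marrow, and differed by -0.91 ± 0.12 (limma adjusted p = 0.00422). Every lung array was below 0 and every marrow array above. The homing receptors named for MDSCs did not differ by a test that passed: Ccr2 read -1.64, -0.75 and -0.98 in lung and -1.08, -0.54 and -0.91 in marrow, a difference of -0.28 (adjusted p = 0.442), and Cxcr2 read 1.25, 1.41 and -0.16 against 0.35, 0.67 and 0.21, a difference of 0.42 (adjusted p = 0.477).

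**Figure D4:**
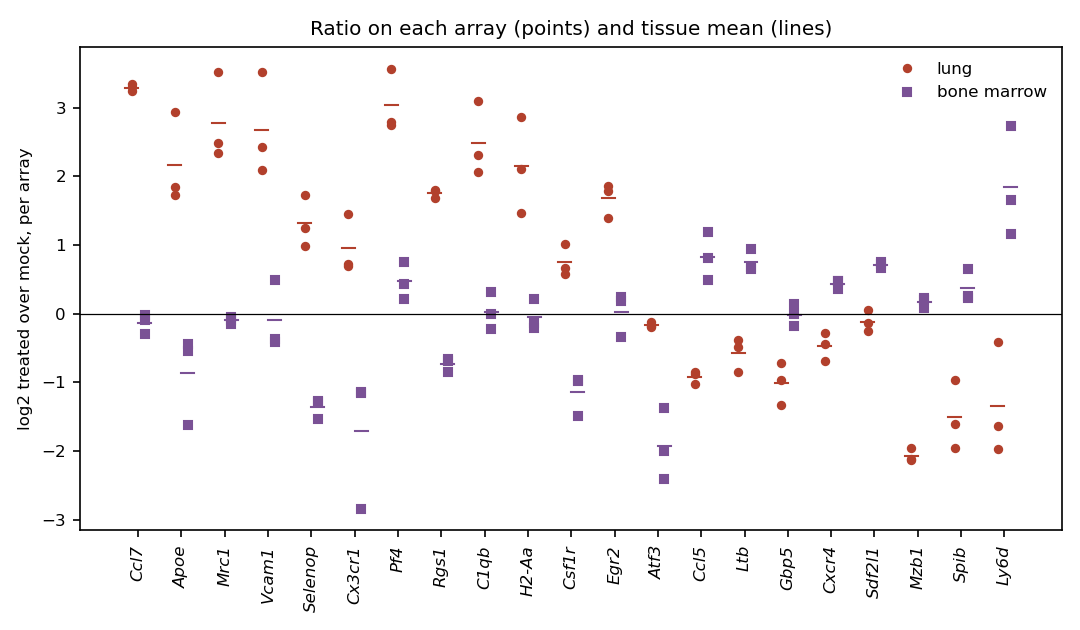
Log2 treated over mock on each array (points) and the mean of each tissue (lines) for 21 named members, lung in red circles and bone marrow in purple squares. Ccl7 and Rgs1 show tight groups far apart, Apoe and Cx3cr1 wider ones, and for Cxcr4 and Ccl5 the lung arrays lie below 0 and the marrow arrays above.

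Some genes passed the test in both tissues in opposite directions. Selenop, the selenium transport protein, read 1.72, 0.99 and 1.24 in lung and -1.28, -1.26 and -1.54 in marrow. That is a 2.49-fold rise in lung beside a fall to 0.389 of mock in marrow, and a difference of 2.68 ± 0.19 (limma adjusted p = 0.000542). Its mock levels were close in the 2 tissues, so the treated cells are what set them apart. Csf1r, the receptor for the macrophage growth factor M-CSF, read 1.02, 0.58 and 0.67 in lung and -0.97, -0.98 and -1.48 in marrow, a fold of 1.69 against 0.452, and differed by 1.90 ± 0.17 (limma adjusted p = 0.00129). Rgs1, a brake on chemokine receptor signalling, read 1.69, 1.78 and 1.81 in lung and -0.85, -0.68 and -0.66 in marrow, with a difference of 2.49 ± 0.09 (limma adjusted p = 5.92e-05). Cbr2, a carbonyl reductase, read 2.20, 1.16 and 1.83 in lung and -0.48, -0.63 and -1.17 in marrow, a difference of 2.49 ± 0.28. P2ry6, a receptor for extracellular UDP, read 1.01, 0.60 and 0.69 against -0.66, -0.54 and -1.36, and Pid1 read 1.14, 0.59 and 0.60 against -0.85, -0.54 and -1.17.

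The opposite orientation, a fall in lung and a rise in marrow, held other kinds of gene. Ltb, lymphotoxin beta of lymphoid tissue, read -0.84, -0.38 and -0.48 in lung and 0.68, 0.94 and 0.65 in marrow, a difference of -1.32 ± 0.14 (limma adjusted p = 0.00231). Ly6d, a surface antigen of B-lineage and plasmacytoid progenitors, read -0.41, -1.63 and -1.97 in lung and 1.17, 1.65 and 2.73 in marrow. Its difference of -3.19 ± 0.49 (limma adjusted p = 0.00695) was the largest in this direction among the named members, and it was -4.92 with the processed signals. D13Ertd608e, a gene named only by its expressed sequence, read -0.53, -0.44 and -0.62 against 1.48, 1.92 and 2.47 (-2.49 as reported, -4.73 with the processed signals). Ly6f and Serpina3g, members of families with near-identical copies, differed by -1.40 and -1.60 and are uncertain as single genes. Levels in mock and treated cells show that lung mock RNA held more Ltb and Ccl5 than marrow mock RNA, and that the treated Ltb levels were close together.

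**Figure D5:**
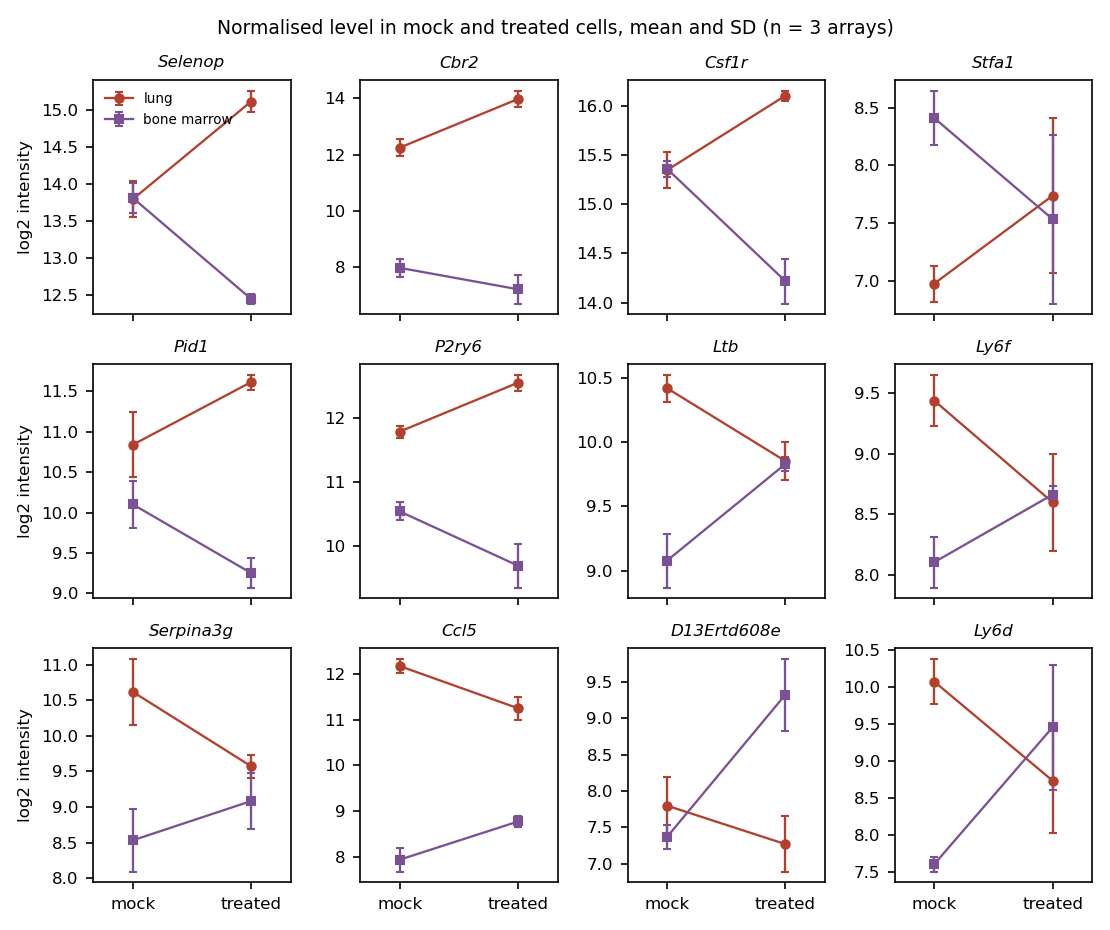
Normalised log2 intensity in mock and treated cells for 12 genes that passed in both tissues in opposite directions, as mean and SD over 3 arrays, lung in red and bone marrow in purple. Csf1r and Selenop start from a like level in mock cells and part after treatment, while Ltb and Ly6f start apart and meet. The vertical axes differ between panels.

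Many interferon genes fell in both tissues. In the type I interferon list 28 of 35 members fell in lung and 19 fell in marrow, and 3 were called higher and 3 lower in the difference. Its median difference was -0.18, and the counts moved on leaving out arrays, to 1 higher without any 1 array other than lung array 1 and to 0 lower without marrow array 1 or 2. Lower calls were 1 without marrow array 3, 4 without lung array 1 and 2 without lung array 2. Rtp4, a chaperone induced by interferon, fell in both (-1.47 and -1.63). Ifi27, a mitochondrial interferon-induced protein, went against the list: 1.23, 1.04 and 1.25 in lung and 0.15, -0.06 and 0.18 in marrow, a difference of 1.08 ± 0.11 (limma adjusted p = 0.00157). Ifit2, which binds viral RNA, differed by -0.92, a call that ended without marrow array 1 (adjusted p = 0.075), 2 (0.0773) or 3 (0.0902).

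The interferon-induced GTPases, which attack the vacuoles of intracellular microbes, had 0 of 15 members higher and 5 lower, with a median difference of -0.27, and 3 lower without marrow array 2. Gbp5, a guanylate-binding protein that promotes inflammasome assembly, read -1.33, -0.72 and -0.97 in lung and -0.01, -0.18 and 0.14 in marrow, a difference of -0.99 ± 0.16 (limma adjusted p = 0.00903). Gbp3 read -0.66, -0.32 and -0.59 against 0.21, 0.21 and 0.46, a difference of -0.81 ± 0.12. Igtp (Irgm3) read -0.94, -0.59 and -0.92 in lung and -0.08, -0.14 and -0.26 in marrow. It differed by -0.65 ± 0.12 (limma adjusted p = 0.0121), and without marrow array 2 by -0.64 (adjusted p = 0.0525). Tgtp2, whose copy Tgtp1 is nearly identical, differed by -1.13 ± 0.17. The lung arrays lay below the marrow arrays for each of these genes, and lung array 2 had the smallest fall.

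The upstream 250 bases of Igtp, Gbp5 and Cxcl10 are shown because these are interferon-responsive genes that were lower in lung. They were picked after their values were seen. Capitals mark matches on either strand to the ISRE core GAAANNGAA, a motif of interferon-regulated promoters, to the NF-kB motif given above and to the AP-1 motif TGANTCA. Igtp lies at chr11:58199306-58199555 on the plus strand, Gbp5 at chr3:142496684-142496933 on the plus strand, and Cxcl10 at chr5:92348890-92349139 on the minus strand, all in GRCm38.p6 from RefSeq.
Igtp: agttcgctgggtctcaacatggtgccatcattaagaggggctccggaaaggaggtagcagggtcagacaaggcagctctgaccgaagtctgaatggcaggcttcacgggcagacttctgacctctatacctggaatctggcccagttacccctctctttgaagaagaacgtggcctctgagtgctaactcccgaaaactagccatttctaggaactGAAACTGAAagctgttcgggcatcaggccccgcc
Gbp5: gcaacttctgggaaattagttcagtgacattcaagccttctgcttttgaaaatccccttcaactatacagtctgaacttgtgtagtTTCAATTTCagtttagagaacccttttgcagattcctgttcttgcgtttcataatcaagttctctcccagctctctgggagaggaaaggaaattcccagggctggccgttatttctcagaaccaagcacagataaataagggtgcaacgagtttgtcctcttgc
Cxcl10: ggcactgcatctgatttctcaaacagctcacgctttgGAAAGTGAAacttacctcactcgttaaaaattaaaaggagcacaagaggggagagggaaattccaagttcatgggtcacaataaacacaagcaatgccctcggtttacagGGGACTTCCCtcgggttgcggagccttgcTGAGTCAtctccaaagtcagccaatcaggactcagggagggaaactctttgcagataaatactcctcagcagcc
Igtp held an ISRE core from 34 to 26 bases before its start, and Gbp5 held one from 164 to 156 that reads on the opposite strand. Cxcl10 held an ISRE core from 213 to 205, overlapping NF-kB matches from 103 to 94, and an AP-1 match from 74 to 68. Of all 27025 promoters 7.16% held the ISRE core and 6.87% the AP-1 motif. The stretches held 8, 3 and 5 CpG dinucleotides. The H2-Aa stretch had no ISRE core or AP-1 match of these letters in this window. An ISRE core did stand in this window before Apoe, Selenop and Ms4a7, which were higher in lung. None stood before Ifit2 and Psmb9, which were lower, so the stretches shown are no contrast of motifs between the directions.

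The immunoproteasome moved with the GTPases in part. In the MHC class I list 1 of 18 members was higher and 4 lower. Psmb9, a catalytic subunit of the immunoproteasome, read -0.63, -0.44 and -0.67 in lung and 0.02, 0.09 and 0.17 in marrow, and differed by -0.68 ± 0.10 (limma adjusted p = 0.00557). The other 3 lower members were less firm, since the count was 1 without marrow array 1, 2 or 3 or lung array 3, 2 without lung array 1 and 3 without lung array 2.

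The B cell and plasma cell list had 7 of 11 members lower in lung and 2 higher, with a median difference of -0.89, 6 to 7 lower calls on leaving out any 1 array, and 1 with median centring. Mzb1, a chaperone of antibody-secreting cells, read -2.12, -2.12 and -1.96 in lung and 0.08, 0.23 and 0.20 in marrow. Its difference was -2.24 ± 0.09 (limma adjusted p = 6.6e-05) and -4.11 with the processed signals. Marrow mock RNA for Mzb1 was well above background on 0 of 3 arrays. The mean marrow fold of 1.13 is thus a lower bound, and the marrow ratio itself did not pass (limma adjusted p = 0.109). Spib, a transcription factor of B cells and plasmacytoid dendritic cells, read -0.96, -1.61 and -1.96 in lung and 0.23, 0.26 and 0.66 in marrow, a difference of -1.89 ± 0.25 (limma adjusted p = 0.00427), and of -3.5 with the processed signals. Jchain, which joins antibody units, read -1.04, -1.93 and -1.55 against 0.04, 0.19 and 0.31, and differed by -1.69 ± 0.21, with marrow mock RNA well above background on 1 of 3 arrays. Cd79a and Cd79b, the signalling chains of the B cell receptor, each differed by -1.13. The higher members were Blnk (0.76, from a rise of 1.78 in lung and 1.02 in marrow), an adaptor also used by macrophages, and Cd22 (0.46). The summed level of the list was 13100 to 17300 in lung mock RNA and 11000 to 13900 in lung treated RNA, and 2920 to 3060 and 3170 to 3550 in marrow. Bcl11a, a factor of B cells and dendritic cells, read -1.70, -1.60 and -2.14 in lung and -0.34, -0.37 and -0.26 in marrow, and differed by -1.49 ± 0.14. Its other probe differed by 0.20 and did not pass (limma adjusted p = 0.204), and the mean of its probes gave -0.64. Whether fewer B cells were among the treated lung cells was not tested.

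T and NK cell genes were few and mostly weak. The NK list had 0 of 9 members higher and 2 lower, with 4 lower without lung array 1 and 1 without marrow array 2 or 3 or lung array 2 or 3. Gzma, the protease granzyme A, read -1.29, -1.74 and -0.93 in lung and 0.05, 0.46 and 0.72 in marrow, a difference of -1.73 ± 0.23 (limma adjusted p = 0.00471), and -2.77 with the processed signals. Its marrow mock RNA was well above background on 0 of 3 arrays. The mean marrow fold of 1.33 is thus a lower bound, and the marrow ratio itself did not pass (limma adjusted p = 0.131). The T cell list had 3 of 12 lower and 0 higher, which became 0 without marrow array 2, lung array 2 or lung array 3, 1 without marrow array 3, 2 without marrow array 1 and 6 without lung array 1. Summed NK levels were 5400 to 5940 in lung mock RNA and 4150 to 4360 in lung treated RNA.

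Markers of other cell types of the lung were examined too. The endothelial list had 17 genes tested and 8 members, of which 4 were higher and 0 lower, or 1 higher with the processed signals. The sums of levels cover all genes tested, not the members alone. Pecam1, the CD31 antigen that monocytes carry as well, read 0.75, 0.63 and 0.84 in lung and 0.14, 0.07 and 0.24 in marrow, a difference of 0.59 ± 0.09. Endothelial levels summed to 13600 to 18100 in lung mock RNA and 29200 to 36100 in lung treated RNA. The lung epithelial list had 19 genes tested and 6 members, of which 1 was higher. Among the alternatives, which include 1 with no filter on dim probes, the higher count reached 8 in this list and 11 in the endothelial list. The higher member was the adhesion gene Cdh1 (0.62), whose difference reversed to -1.01 with the processed signals (adjusted p = 0.0334). Its call also ended without marrow array 1 (adjusted p = 0.0524), marrow array 2 (0.0704) or lung array 3 (0.0534). Epithelial levels summed to 26600 to 42900 in lung mock RNA and 72000 to 107000 in lung treated RNA, against 9340 to 10500 and 8870 to 10100 in marrow. Vcam1, an adhesion molecule of endothelium and of some macrophages, read 3.52, 2.43 and 2.10 in lung and -0.41, -0.36 and 0.49 in marrow, a difference of 2.78 ± 0.39 (limma adjusted p = 0.00511). Its other probe differed by 1.45 (limma adjusted p = 0.00268).

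Neutrophil granule genes were 7 higher and 1 lower of 26 members, a higher count that was 13 without lung array 3 and 4 with scaling between arrays. Chil1, a chitinase-like protein of neutrophils and macrophages, read 1.50, 1.29 and 1.73 in lung and -0.24, -0.19 and -0.44 in marrow, and differed by 1.80 ± 0.13 (limma adjusted p = 0.000671). Stfa1, a stefin with near-identical copies, read 0.68, 1.35 and 0.26 in lung and -0.56, -0.60 and -1.47 in marrow, a difference of 1.64 ± 0.32 (limma adjusted p = 0.0169). Hp, the haemoglobin scavenger haptoglobin, was the lower member (-1.01). The alarmins S100a8 and S100a9 did not pass: S100a8 read 1.39, 3.14 and 0.41 in lung and 0.40, 0.68 and 0.38 in marrow (1.16 ± 0.59, adjusted p = 0.216), and S100a9 read 2.31, 3.35 and 0.26 against 0.48, 0.36 and 0.36 (1.58 ± 0.67, adjusted p = 0.147). In both genes lung array 2 was highest and lung array 3 within or near the marrow range. Retnlg, a resistin-like hormone of neutrophils, read 1.65, 3.02 and 0.89 against -1.18, 0.36 and -1.06. Its call at 2.48 ± 0.58 (adjusted p = 0.0305) ended without marrow array 1 (2.2, 0.0932), marrow array 3 (2.26, 0.0884) or lung array 2 (1.9, 0.0566), with the processed signals (0.0507) and with scaling (0.0867).

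Matrix metalloproteinases, which cut the extracellular matrix, and their inhibitors had 4 of 7 members higher and 0 lower. Timp2, an inhibitor, read 1.99, 1.57 and 1.75 in lung and -0.14, 0.15 and 0.21 in marrow, a difference of 1.70 ± 0.14 (limma adjusted p = 0.000936). The macrophage elastase Mmp12 differed by 2.03 ± 0.15, with marrow mock and treated RNA each well above background on 1 array. The gelatinase Mmp9 differed by 1.91 ± 0.33 (limma adjusted p = 0.0103). The premetastatic niche list, which shares Mmp9, had 4 of 13 higher and 0 lower, and 6 without lung array 3. Its member Spp1, osteopontin, rose in both tissues, with 2.02, 1.56 and 1.96 in lung and 1.18, 0.99 and 1.04 in marrow. Its difference of 0.77 did not pass without marrow array 2 (0.73, adjusted p = 0.0515), with the processed signals (0.18, 0.653), with negative-control background (0.0705) or with scaling (0.4, 0.504).

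Genes induced within minutes of a stimulus differed in part through a fall in marrow. In the immediate early list 6 of 22 members were higher and 1 lower, with a median ratio of -0.08 in lung and -0.40 in marrow. The higher count was 4 without marrow array 1, 3 without lung array 2, 2 with scaling and 3 with the processed signals. Atf3, a stress-induced repressor, read -0.19, -0.17 and -0.11 in lung and -1.99, -1.38 and -2.41 in marrow, so that its difference of 1.77 ± 0.23 (limma adjusted p = 0.00427) lay in marrow, and with scaling it was 2.14 (adjusted p = 0.07). Klf6, a zinc-finger factor of injured tissue, read 0.61, 0.66 and 0.58 against -0.90, -0.34 and -0.51, a difference of 1.20 ± 0.14 that did not pass with scaling (1.38, adjusted p = 0.0586). Egr2, a factor of macrophage and lymphocyte activation, rose in lung instead, with 1.40, 1.79 and 1.85 against 0.24, 0.18 and -0.33 (1.65 ± 0.18, adjusted p = 0.00248). Nfkbiz, an inducible cofactor of NF-kB, read 0.80, 0.95 and 0.85 in lung and -0.17, 0.03 and -0.47 in marrow. Il1b, the cytokine interleukin-1 beta, read 0.42, 1.08 and 1.20 against -0.76, -0.11 and -1.36. Its difference of 1.64 ± 0.33 (adjusted p = 0.017) did not pass without marrow array 1 (1.63, 0.0594) or lung array 2 (1.55, 0.0531).

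Myc, the growth regulator, went the other way, with -1.24, -0.30 and 0.44 in lung and 1.05, 1.29 and 1.44 in marrow. Its difference of -1.63 ± 0.37 (adjusted p = 0.0266) ended without marrow array 1 (-1.73, 0.0654), 2 (-1.61, 0.0944) or 3 (-1.54, 0.0783), or without lung array 2 (-1.66, 0.0648). The lung arrays spread widely for Myc, and the marrow arrays did not. Ddit4, an inhibitor of mTORC1 under stress, read -1.48, -0.45 and -0.27 in lung and 1.75, 0.52 and 1.13 in marrow (-1.87 ± 0.38, adjusted p = 0.019), and did not pass without marrow array 1 (-1.56, 0.0589) or 3 (-1.87, 0.0547), or with scaling (-2.19, 0.1). Dyrk3, a kinase that dissolves stress granules, read -1.61, -0.82 and -1.27 against 0.10, 0.59 and 0.91, a difference of -1.76 ± 0.25 (limma adjusted p = 0.00549). The cell cycle list had 2 of 26 higher and 0 lower, with 1 without marrow array 1, 0 without marrow array 2, 3 without marrow array 3 and 4 without lung array 1.

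More protein folding genes rose in marrow than in lung. In the heat shock and unfolded protein list 9 of 19 members rose in marrow and 3 in lung, and 5 were lower in lung in the difference and 1 higher. The lower count was 2 without marrow array 1, marrow array 2 or lung array 2, 3 without marrow array 3 or lung array 1, and 2 with scaling. Sdf2l1, a cofactor of the endoplasmic reticulum chaperone BiP, read -0.14, -0.26 and 0.05 in lung and 0.75, 0.72 and 0.67 in marrow, a difference of -0.83 ± 0.10 (limma adjusted p = 0.00304). Hsp90b1, the chaperone Grp94, read 0.09, -0.07 and 0.22 against 0.52, 0.78 and 0.90, and its difference of -0.65 did not pass without marrow array 2 (-0.62, adjusted p = 0.0657). Hspa8, the constitutive cytosolic chaperone, was the higher member, with 1.15, 0.75 and 1.05 in lung and -0.10, -0.12 and -0.26 in marrow (1.14 ± 0.12, adjusted p = 0.00206). Cholesterol and fatty acid synthesis had 0 of 22 members higher and 4 lower, with 2 lower without marrow array 1 or 2. Idi1, an isomerase of the isoprenoid pathway, read -0.16, -0.15 and -0.07 in lung and 0.46, 0.53 and 0.60 in marrow, a difference of -0.66 ± 0.08 (limma adjusted p = 0.00351).

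Many genes reported to respond to drugs of this kind rose in both tissues. Of 17 members reported to respond to histone deacetylase inhibition, 13 rose in lung and 9 in marrow, and the list's median difference was 0.03, with 3 called higher and 1 lower. Armcx2 rose by 1.53 in lung and 1.72 in marrow, the metallothionein gene Mt2 by 1.19 and 1.16, and the cell cycle inhibitor Cdkn1a by 0.45 in each. Among the called members, Ecm1, an extracellular matrix protein, read 1.27, 1.44 and 1.28 in lung and -0.04, -0.24 and -0.94 in marrow (1.74 ± 0.22, adjusted p = 0.00344). Syngr1, a synaptic vesicle protein, read 1.35, 1.06 and 1.44 against 0.06, 0.08 and 0.35 (1.12 ± 0.13, adjusted p = 0.00281). Clu, the chaperone clusterin, was lower in lung (-1.01), and lost its call without marrow array 1 (adjusted p = 0.0555), marrow array 3 (0.0527) or lung array 2 (0.0524), with the processed signals (0.0913) and with scaling (0.0533).

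The differences of Hdac1 and Dnmt1 did not pass the test. Hdac1, a class I deacetylase that entinostat inhibits, had a difference of 0.00 ± 0.12 (adjusted p = 0.983), and Dnmt1, the maintenance methyltransferase that azacytidine traps, of -0.17 ± 0.12 (adjusted p = 0.341). Dnmt1 read -0.31, -0.27 and 0.02 in lung and 0.03, -0.16 and 0.08 in marrow, with overlapping arrays. In the histone deacetylase list 3 of 15 members were called higher and 0 lower, and 0 higher without marrow array 1 or 2. Genes of nucleoside uptake and activation stood among the 3 calls of 17 in the DNA methylation list. Slc29a1, the nucleoside transporter ENT1, read 1.13, 0.97 and 1.05 in lung and 0.32, 0.50 and 0.42 in marrow, a difference of 0.64 ± 0.09 (limma adjusted p = 0.00556). Dck, deoxycytidine kinase, which activates deoxycytidine analogues such as decitabine, the deoxy relative of azacytidine, read -0.72, -0.68 and -0.81 against -0.24, -0.13 and -0.31. Its difference of -0.51 ± 0.09 (adjusted p = 0.0107) did not pass with the processed signals (-0.48, 0.0805) or with scaling (-0.42, 0.0649). The germline genes silenced by DNA methylation had 3 members, Tex101, Brdt and Taf7l, with 0 called. Dnmt3a, a de novo methyltransferase, differed by 0.72, a call that ended without any 1 array other than lung array 2. Among p53 targets 3 of 17 were higher and 0 lower (17.6% called, against 15.8% over all members), and 1 higher without marrow array 1 or 2. Among them was Sesn1, a stress-induced inhibitor of mTORC1, with 1.30, 1.05 and 1.18 in lung and -0.08, -0.27 and -0.29 in marrow (1.39 ± 0.10, adjusted p = 0.000726).

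The stem cell antigens Ly6a and Cd34 rose in both tissues. Ly6a (Sca-1), whose probe may also read related Ly6 genes, read 1.04, 1.52 and 1.00 in lung and 1.93, 2.14 and 2.23 in marrow, a difference of -0.91 ± 0.16 (adjusted p = 0.0107) that did not pass with scaling (-1.25, 0.179). Cd34 read 1.31, 1.00 and 1.19 against 1.46, 1.49 and 2.04, and its difference of -0.50 ± 0.17 did not pass (adjusted p = 0.0857). Prom1 (CD133) was the reverse, with 0.86, 0.21 and 0.29 in lung and -0.66, -0.90 and -0.56 in marrow, a difference of 1.16 ± 0.18 (adjusted p = 0.00763). Of the enzymes by which MDSCs hold back T cells, Nos2 differed by 0.13 (adjusted p = 0.749). Arg1 was not a member, since its signal was well above background on 0 marrow arrays in either channel, and its lung ratios were 1.71, 3.07 and 2.49. Ddah2, which breaks down an inhibitor of nitric oxide synthase, read 1.54, 1.15 and 1.28 in lung and 0.17, 0.15 and 0.32 in marrow, and differed by 1.11 ± 0.12 (adjusted p = 0.00208).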

How the data were processed

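RNA of sorted M-MDSCs was hybridised to 6 2-colour Agilent mouse arrays, 3 per tissue, with mock in Cy3 and treated in Cy5, per the labels. The deposited scanner files hold spot intensity values made with Feature Extraction 10.7.3.1, per the file headers. The deposited value tables hold log2 ratios, for which the submitters' processing notes name limma without a version. They served as an alternative.

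Mean spot signals were corrected with normexp (offset 50) on the median local background and loess-normalised within each array in limma 3.58.1 under R 4.3.3, with statmod 1.5.0. Control spots and outlier-flagged spots were left out, and spots of a probe were averaged. The brightest kept probe stood for a gene. lmFit and eBayes gave 1 mean per tissue and their difference over all 22157 genes tested (27770 of 39429 probes), two-sided, with 4 residual and 3.53 prior degrees of freedom. P-values were adjusted over all of them by Benjamini-Hochberg, and 0.05 was the threshold. They measure the spread between these samples, since nothing beyond the word biological says how the replicates were made. Of 3636 members with more than 1 probe, 8 had probes called in opposite directions (Cpne3, Dnajc5, Pcgf2, Slfn8, Sp110, Syk, Synj2 and Zkscan1).

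Probes were named through RefSeq accession (26581), symbol (2597) or synonym (492), and 9759 kept the file's name; 4943 members carry an identifier only. Probe positions are on mm9, per the file headers. Levels per channel were scaled between arrays by Aquantile. Promoters came from RefSeq's GRCm38.p6 table, of which 10535 of 17546 members matched (60%), with 70.4% of the higher and 56.1% of the lower genes; under 80% matched, so a comparison of motifs between those sets is void and none is given. The E-box CACGTG, the PU.1 motif GAGGAAGT and the C/EBP motif TTGCGCAA were also searched and matched in 6.05%, 2.44% and 0.17% of all promoters.

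Named genes were the 15 highest and 15 lowest differences among called members whose arrays did not overlap (identifier, Gm, Rik and LOC names left out), up to 6 per orientation that passed in both tissues in opposite directions, up to 4 per list with the smallest p, 12 genes of prior interest, and the 4 genes on either side of the threshold. Other list members were named after their values were seen. Some named genes are not reported here. The members and lists were chosen with earlier results of these data known. Deviations of same-numbered arrays from their tissue mean correlated at 0, 0.14 and 0.06, and those of the other pairs between tissues at -0.14 to 0.04. With 3 arrays per tissue this cannot decide whether the numbers pair the arrays, and the main fit used no pairing. The test was checked on simulated data. Alternatives changed the background, the normalisation, the probe filter, the choice of probe, the variance model and the arrays in the fit.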

Additional observations from a re-analysis of the deposited data

Results flagged for a closer look

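The treated over mock ratio differed between lung and marrow for 2774 members by a test of the difference itself. Among the genes that passed in both tissues in opposite directions, those with the larger ratios in the weaker tissue, up to 6 per orientation, were Selenop, with a difference of 2.68, Cbr2 with 2.49, Csf1r with 1.90, Stfa1 with 1.64, Pid1 with 1.63 and P2ry6 with 1.62, which rose in lung and fell in marrow. In the other orientation they were Ly6d with -3.19, D13Ertd608e with -2.49, Ccl5 with -1.75, Serpina3g with -1.60, Ly6f with -1.40 and Ltb with -1.32. The differences of these genes passed limma's moderated test, and all 12 were picked because both tissue ratios passed.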

How the results depend on the processing

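With median centring in place of loess 13 members were called, 9 higher in lung and 4 lower. With the processed signals 1102 were higher. Leaving out each array in turn gave 1211 to 2266 calls, with 881 to 1462 higher and 330 to 804 lower. The counts under the other alternatives run (negative-control background, the deposited ratios, offset 16, scaling, the filters, members alone, mean of probes, intensity trend, array weights) lay within 1.5 times the reported 2774. The replicate number as a block gave 2343 calls (1376 higher, 967 lower), and whether the numbers pair the arrays is not known. Of the 153 called members named by the rule, 147 lost their call under median centring, 73 of them only there, 57 on leaving out at least 1 array and 44 with the processed signals. With those signals Itgax (-0.09, adjusted p = 0.776), Cldn5 (-0.49, 0.162), Cdh1 (-1.01, 0.0334) and Ehhadh (-0.11, 0.823) reversed. The cause was not tested. Signals near background limit every ratio of a dim gene. Of the called members 2504 (90.3%) were well above background in both channels of both tissues, near the share over all members (15340, 87.4%).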

Other observations

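Monocyte, erythroid, metabolic and imprinted genes remain to be described. The monocyte list had 4 of 21 members higher and 3 lower. The higher ones included Ace (0.70), angiotensin-converting enzyme, and Spn (0.55), the CD43 antigen of non-classical monocytes, whose call ended without marrow array 2 (adjusted p = 0.0514) and with the processed signals (0.0519). The lower ones included Ly6c1 (-0.90), whose probe may also read Ly6c2, and F13a1 (-0.54), a clotting factor subunit. The lower count was 0 without marrow array 1, 2 or 3 or lung array 3, 1 without lung array 1 and 4 without lung array 2.

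Erythroid genes split, with 3 of 10 higher and 2 lower. Ahsp, which stabilises free alpha globin, differed by 2.00 ± 0.27, with treated marrow RNA well above background on 2 of 3 arrays. Hba-a1, an alpha globin gene with a near-identical copy, read -1.65, 0.04 and -2.08 in lung and 0.65, 0.46 and 0.65 in marrow. Its difference of -1.81 (adjusted p = 0.044) did not pass without marrow array 1 (-1.78, 0.109), 2 (-1.88, 0.118) or 3 (-1.78, 0.106) or without lung array 1 (-1.61, 0.094) or 3 (-1.39, 0.081). The lower count of the list was 0 without those 5 arrays and 3 without lung array 2.

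Glycolysis genes had 2 of 22 higher and 1 lower. Slc2a3, the glucose transporter GLUT3, differed by 0.83 ± 0.11 (limma adjusted p = 0.00431). Among imprinted genes 2 of 6 were higher, or 1 without marrow array 1 or 2. Igf2r, which clears the growth factor IGF2, read 0.55, 0.83 and 1.04 in lung and -0.23, -0.30 and 0.02 in marrow, and differed by 0.98 ± 0.15 (limma adjusted p = 0.00661). The NADPH oxidase and redox list had 3 of 16 higher and 0 lower, with 0 higher without marrow array 1, and the basophil, mast cell and eosinophil list had 0 of 8 called in either direction. Tlr4, the receptor for bacterial endotoxin, differed by 0.81 ± 0.14 (limma adjusted p = 0.0094).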
